A study of Mus musculus with 26 samples.

Results

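The cytosolic ribosome is built from ribosomal RNA and a large set of small, mostly basic proteins, nearly all of them present in a single copy per ribosome. Their mRNAs are among the most abundant in dividing cells, and most begin with a short pyrimidine tract, the 5′ terminal oligopyrimidine (TOP) element, through which the mTOR pathway adjusts their translation together. A few of the genes have a second copy (a paralogue) that is used mainly in one tissue, among them copies expressed in male germ cells, and several of the genes lie on the X chromosome.

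Mouse genes were taken as cytosolic ribosomal protein genes by symbol, as Rpl or Rps followed by a number, together with Rplp0, Rplp1, Rplp2 and Rpsa, without pseudogenes and the S6 kinases. The RefSeq table holds 84 protein-coding genes with such a symbol, and 63 had a probe named for them on the array, among 16590 named genes. They were represented by 81 probes, and each gene was read from its probe with the highest mean level. Of the 63 genes, 59 gave a signal above the array's negative controls (detection p under 0.01 on at least 2 arrays) and were tested among 9840 genes. Rpl6, Rpl17 and Rps23, which encode core ribosomal proteins, and Rplp2, which encodes one of the acidic P-stalk proteins, were detected on none of the 26 arrays, so their probes gave no information on those genes.

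The study compared pluripotent cells obtained from mouse germline stem cells (GSC, self-renewing spermatogonial cells in culture) by different routes, using Illumina bead arrays and 2 biological replicates of each of 13 lines, all of the OG2 strain (mice with a green fluorescent reporter driven by Pou5f1 sequences). The 10 lines labelled pluripotent were 4 iPSC[GSC] clones and 4 gPSC clones, each with 2 clones from neonatal (day 10) and 2 from adult (day 40) GSC, 1 embryonic stem cell line (ESC) and 1 iPSC[MEF] line made with the Tet-4F factors. By general use of the terms, iPSC are cells reprogrammed with introduced factors and gPSC are pluripotent cells that arise from GSC cultures without them. The 3 lines labelled not pluripotent were GSC[neonatal], GSC[adult] and mouse embryonic fibroblasts (MEF), so each parent cell type was represented by 1 line per age or by 1 line.

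Levels below are normalized log2 intensities (limma neqc), a scale on which 1 unit is a doubling of the fluorescence of a probe and on which probes of different genes are not comparable as amounts of RNA. A mean ± SD is over line means (10 pluripotent lines, 2 GSC lines) or, for MEF, over its 2 arrays. Differences carry their standard error (SE), and p-values come from limma with Benjamini-Hochberg adjustment over all 9840 genes tested, with 0.05 as the threshold. Both GSC lines, MEF, ESC and iPSC[MEF] were each fitted as a cell type with 1 line. The spread between lines in these tests therefore came from the cell types with 2 clones, and not from GSC or MEF lines. The label of each cell type was checked first. Of 8 pluripotency markers, 7 were detected on every pluripotent array and none on MEF arrays. In GSC, 4 of the 8 were detected on every array and 3 (Nanog, Sox2 and Tdgf1) on none. Pou5f1 was at 7.94 in GSC[neonatal] and 9.74 in GSC[adult], and Dppa5a at 9.84 and 10.1. All 8 were significantly higher in pluripotent lines than in GSC. All 7 measured germline stem cell markers were detected on every GSC array, but 3 were also detected on every pluripotent array and 2 on every MEF array. Of the 7, 6 were significantly lower and 1 higher in pluripotent lines than in GSC. Etv5 read 6.23 and 5.35 in the GSC lines and 7.02 to 8.53 in pluripotent lines. Dazl read 12.08 and 11.96 in the GSC lines, 10.8 in iPSC[GSCneonatal]#1 and 9.94 in gPSC[GSCneonatal]#1. In the other pluripotent lines Dazl read 5.93 to 7.55. Tdgf1, a pluripotency marker, was at 4.28 in gPSC[GSCneonatal]#1, 4.39 in gPSC[GSCneonatal]#2 and 4.32 in iPSC[MEF], against 9.21 to 10.6 in the other pluripotent lines. Fibroblast markers varied among the pluripotent lines, with a line mean over 8 markers from 4.86 to 8.54, against 5.96 and 6.19 in the GSC lines and 9.22 in MEF. Of the 8, 6 were detected on every GSC array and Col1a2 on none. Against MEF, 7 of the 8 were significantly lower in pluripotent lines. Lum, at 5.21 in MEF, was higher in pluripotent lines. Of 8 markers of somatic testis cells, 5 were detected on no GSC array and 2 on every GSC array, and the means over the list were 5.16 and 5.19. Wt1 was high in GSC, at 8.779 in GSC[neonatal] and 9.203 in GSC[adult]. It was at 4.52 to 6.17 in the pluripotent lines and 5.199 in MEF. Of the 4 markers on this list that were tested, 2 were lower and 1 was higher in pluripotent lines than in GSC. The part of other cells in the results below was not tested. The arrays fell into 3 groups by background signal, with 8, 16 and 2 arrays. The group of 2 held both MEF arrays and no others, so background group and cell type cannot be told apart in any comparison with MEF. No header names a chip, and what the groups stand for was not tested. The lines gPSC[GSCneonatal]#2 and iPSC[MEF] were unusually alike. Their ribosomal protein levels differed by a median of 0.059, less than any other of the 45 pluripotent pairs (0.066 to 0.21). Many of those pairs also lay within the range between single arrays of one line (0.054 to 0.126). Over all genes the line means of gPSC[GSCneonatal]#2 and iPSC[MEF] correlated at 0.997, and those of the next pluripotent pair at 0.989. What this means for the labels of gPSC[GSCneonatal]#2 and iPSC[MEF] was not tested. Without both lines 16 genes were higher and 1 lower in the comparison of pluripotent lines with GSC below, against 15 and 1 with them.

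The promoters of the genes were set beside each other because the TOP element sits at the transcription start. The RefSeq promoter table (GRCm38.p6) held 65 promoters of 54 of the 63 genes. A run of 7 or more C or T on the sense strand within 20 bases of the annotated start occurred in 34 of the 65, or 52.3%, against 24.3% of 32851 promoters of all genes. The same run on the antisense strand occurred in 9.23% of the ribosomal protein promoters and in 26.5% of all promoters. The sequence CCGGAAG, a form of the site of ETS-family factors, was found on either strand of the 300 bases in 35.4% of them against 8.86% of all. Rpl39l was the only gene of the 59 that was significantly lower in pluripotent lines than in GSC. The normalized level of Rpl38 varied least among the 13 lines. The windows below are printed for Rpl39l, for Rpl38 and for the 4 genes on the X chromosome. Each runs from 80 bases before to 20 bases after the annotated start, 5′ to 3′ on the gene's strand, with complete pyrimidine runs of 7 or more in capitals. Rps4x (chrX:102189372-102189471, minus strand), Rpl10 (chrX:74270736-74270835, plus strand) and Rpl36a (chrX:134585574-134585673, plus strand) held no such run within 20 bases of the start. Rpl39 (chrX:37085203-37085302, minus strand), Rpl39l (chr16:10170148-10170247, plus strand) and Rpl38 (chr11:114668500-114668599, plus strand) did. The absence of a run in these windows says nothing about the mRNA, whose true 5′ end can differ from the annotated one.
Rps4x: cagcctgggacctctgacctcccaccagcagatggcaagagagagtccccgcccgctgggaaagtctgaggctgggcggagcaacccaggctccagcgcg
Rpl10: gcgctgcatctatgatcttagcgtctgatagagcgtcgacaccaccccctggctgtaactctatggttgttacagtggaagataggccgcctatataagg
Rpl36a: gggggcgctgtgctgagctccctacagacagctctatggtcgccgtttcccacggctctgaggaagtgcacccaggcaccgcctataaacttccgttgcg
Rpl39: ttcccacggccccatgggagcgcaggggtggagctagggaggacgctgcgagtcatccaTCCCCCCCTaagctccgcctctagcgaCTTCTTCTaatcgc
Rpl39l: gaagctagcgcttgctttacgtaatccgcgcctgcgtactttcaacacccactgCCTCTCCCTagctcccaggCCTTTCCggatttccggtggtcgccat
Rpl38: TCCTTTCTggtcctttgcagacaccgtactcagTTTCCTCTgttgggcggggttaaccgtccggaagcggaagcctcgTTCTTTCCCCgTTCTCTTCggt

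Ribosomal protein probes crowded the top of every array. Between 29 and 36 of the 63 were among the 100 brightest probes of an array. The highest raw signal of an array was 14806 to 19196 on the 24 pluripotent and GSC arrays and 50704 and 51274 on the MEF arrays. Between 6 and 11 of the genes reached 80% of that maximum on pluripotent arrays, between 4 and 6 on GSC arrays and 7 or 8 on MEF arrays. The files flag no saturated probe, so 8 genes that reached 80% of the maximum on 13 or more arrays were treated as near the ceiling, where a difference may be compressed. They were Rpl41, Rplp1 and Rps20, on all 26 arrays, Rps2 on 23, Rpl37, Rpl9 and Rps12 on 22 each, and Rpl23 on 13. Ratios between the arrays of one line, by brightness, gave no uniform picture. The ratio of GSC[adult] replicate 1 to replicate 2 had a median of 1.32 for probes from 100 to 200, 1.09 from 6400 to 9000 and 1.24 above 14000. For gPSC[GSCneonatal]#1 it was 1.22 in the first of these bins and 1.14 in the last, and for ESC 1.11 and 1.13. Between arrays of one line the bins above 14000 held only 4 to 8 probes. Between cell types, MEF over ESC arrays gave medians of 2.41 to 2.75 from 100 to 200. Above 14000 they were 2.52 to 3.12, with 27 or 8 probes. The extent of any compression was not settled.

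Of the corrected signal of an array, the 63 probes took 9.15% to 11% on the 20 pluripotent arrays, with a median of 9.65%. The share was 7.35% and 7.66% on the GSC[neonatal] arrays, 7.61% and 8.91% on the GSC[adult] arrays, and 8.86% and 9.0% on the MEF arrays. All GSC arrays lay below all pluripotent arrays, and so did both MEF arrays. Over lines the share was 9.87% ± 0.63 (SD, n = 10) in pluripotent cells and 7.88% ± 0.54 (n = 2) in GSC. On raw signal the MEF arrays, at 7.54% and 7.58%, lay above the pluripotent range of 6.31% to 7.26%, so the place of MEF turned with the background correction, while GSC stayed lowest at 5.06% to 5.92%. Among pluripotent lines the largest shares belonged to both iPSC[GSCneonatal] clones and to gPSC[GSCneonatal]#1, at 10.5% to 11%, whereas gPSC[GSCneonatal]#2 gave 9.16% and 9.15%. In bulk RNA, fewer cells of a type and less RNA per cell cannot be told apart.

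**Figure D1:**
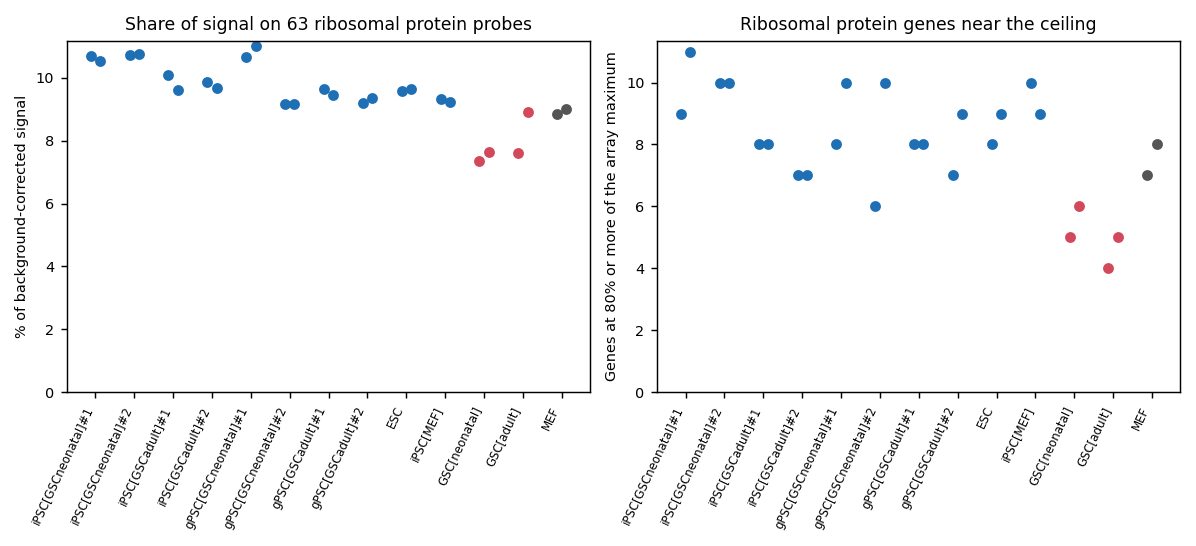
Left, percent of the background-corrected signal of each array on the 63 ribosomal protein probes. Right, number of ribosomal protein genes at 80% or more of the array's highest raw signal. Each dot is an array (2 per line; blue pluripotent, red GSC, grey MEF), and on both axes the 4 GSC arrays lie low, at 7.35% to 8.91% and 4 to 6 genes.

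On the normalized levels, the spread of a gene over the 13 lines tended to be smaller for brighter genes. Quantile normalization gives the brightest ranks of every array the same values, so it limits the spread of the brightest genes. The median SD of line means was 0.060 for the 8 genes near the ceiling (mean levels 13.80 to 14.15), 0.17 for the 37 other genes with a mean of 11 or more, and 0.45 for the 14 dimmer ones. Rpl38 had the smallest SD, 0.037, followed by Rplp1, Rpl37, Rps20 and Rpl41. Rps15a, Rpl3l, Rpl22, Rpl27a and Rps4x had the largest, from 1.32 for Rps15a to 0.76 for Rps4x. Of these 5, only Rps4x was bright, with a mean level of 13.20. A small SD here does not show a constant mRNA. Without the quantile step, on arrays centred on their median, Rpl38 was 0.49 higher in pluripotent lines than in GSC (limma adjusted p = 0.014). Several genes that encode major ribosomal proteins had dim probes (Rpl14 at 5.41, Rpsa at 4.89), so a low level here describes a probe and not the amount of the mRNA.

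**Figure D2:**
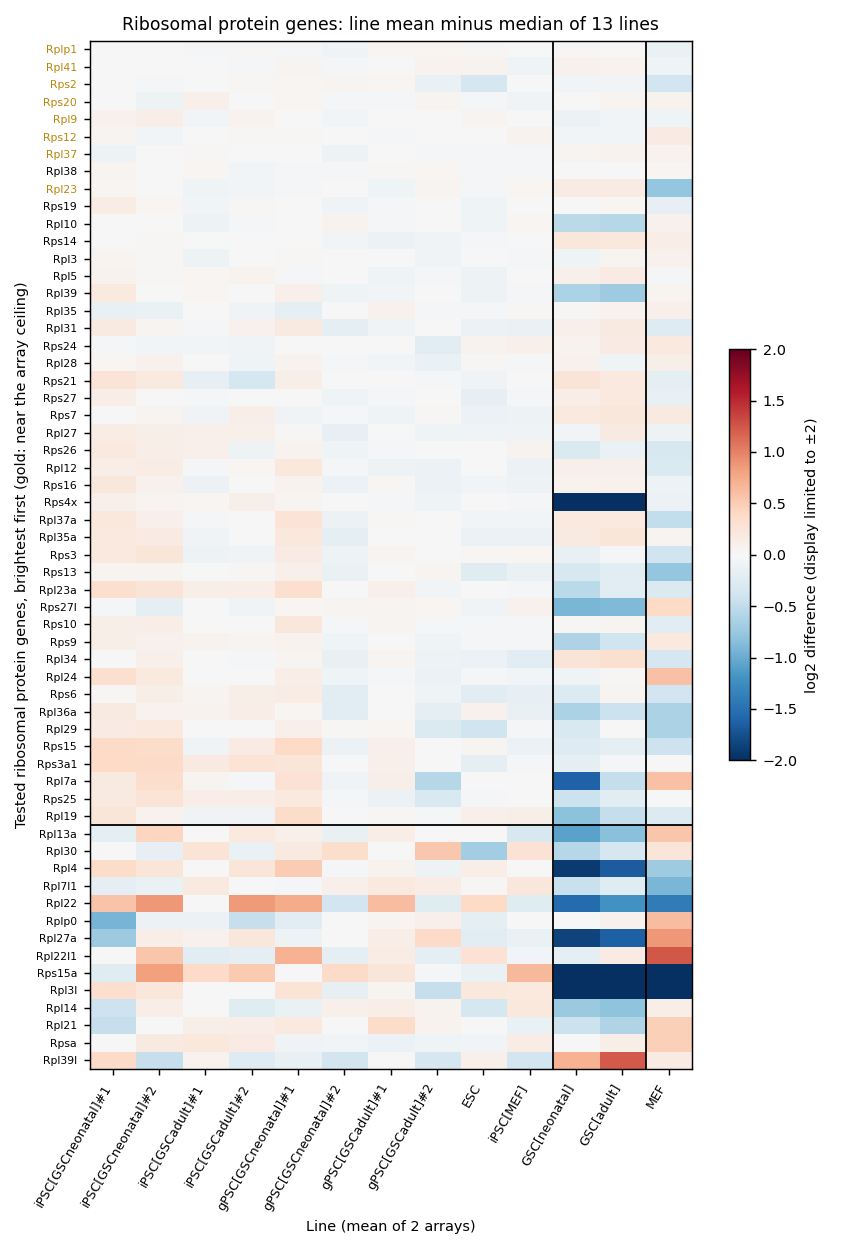
Line mean of each of the 59 tested genes minus its median over the 13 lines (log2, colour limited to ±2), genes ordered from the brightest down, gold names near the ceiling; vertical lines separate the 10 pluripotent lines, 2 GSC lines and MEF, and the horizontal line marks a mean level of 11. Rps4x, Rps15a and Rpl3l are the darkest blue cells in the GSC columns, and Rpl39l is red there.

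The first comparison asked how the pluripotent lines differed from GSC. Of the 59 genes, 15 were higher in pluripotent lines and 1 was lower. Over all genes tested, 23.6% were called higher and 27.7% lower, so the share of ribosomal protein genes called higher (25.4%) was near the background and the share called lower (1.69%) was below it. The median difference was 0.064 for the 59 genes and -0.00088 for all genes. No line overlapped between the sides for 19 genes that lay above in pluripotent lines and 8 that lay below, where 24.2% and 28.3% of all genes did so.

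The 4 genes on the X chromosome were read first, as a group chosen after their values had been seen. Rps4x, a protein of the small subunit, ranged from 13.36 to 13.64 on the 20 pluripotent arrays with a median of 13.54. Its GSC arrays gave 11.42 and 11.60 (neonatal) and 11.42 and 11.51 (adult), and its MEF arrays 13.36 and 13.40. The GSC arrays were thus apart from all others, which lay together. The level was 13.53 ± 0.06 (SD, n = 10 lines) in pluripotent lines and 11.49 ± 0.03 (n = 2 lines) in GSC, a difference of 2.04 (SE 0.14, 4.11-fold, limma adjusted p = 2.56e-11). In raw signal the pluripotent median was 10405, and the GSC arrays gave 2096 to 2446.

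Rpl10 encodes a large-subunit protein that is added late in assembly. Its pluripotent arrays ranged from 13.66 to 13.89 (median 13.75) and its GSC arrays read 13.19, 13.26, 13.15 and 13.25. With no overlap, the difference was 0.54 (SE 0.13, 1.46-fold, limma adjusted p = 0.0013). Rpl39, a very small protein at the exit tunnel for the new polypeptide, ranged from 13.50 to 13.90 (median 13.65) on pluripotent arrays. It read 12.96, 13.10, 12.75 and 13.16 on GSC arrays, below every pluripotent array, with a difference of 0.67 (SE 0.19, 1.59-fold, limma adjusted p = 0.0056). Rpl36a, a large-subunit protein, ranged from 12.21 to 12.75 (median 12.57), and its GSC arrays read 11.73, 12.10, 11.85 and 12.38. Arrays overlapped but line means did not, and the difference of 0.53 (SE 0.27) missed the threshold (limma adjusted p = 0.105). Without the second GSC[adult] array it was 0.66 (adjusted p = 0.0298), and with line means as the unit of the fit 0.53 (adjusted p = 0.0181). The median of the 4 X-linked genes was 0.61 and that of the 55 autosomal genes 0.023. Of 338 other X-linked genes tested, 26.9% were higher and 27.8% lower, with a median of 0.12.

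**Figure D3:**
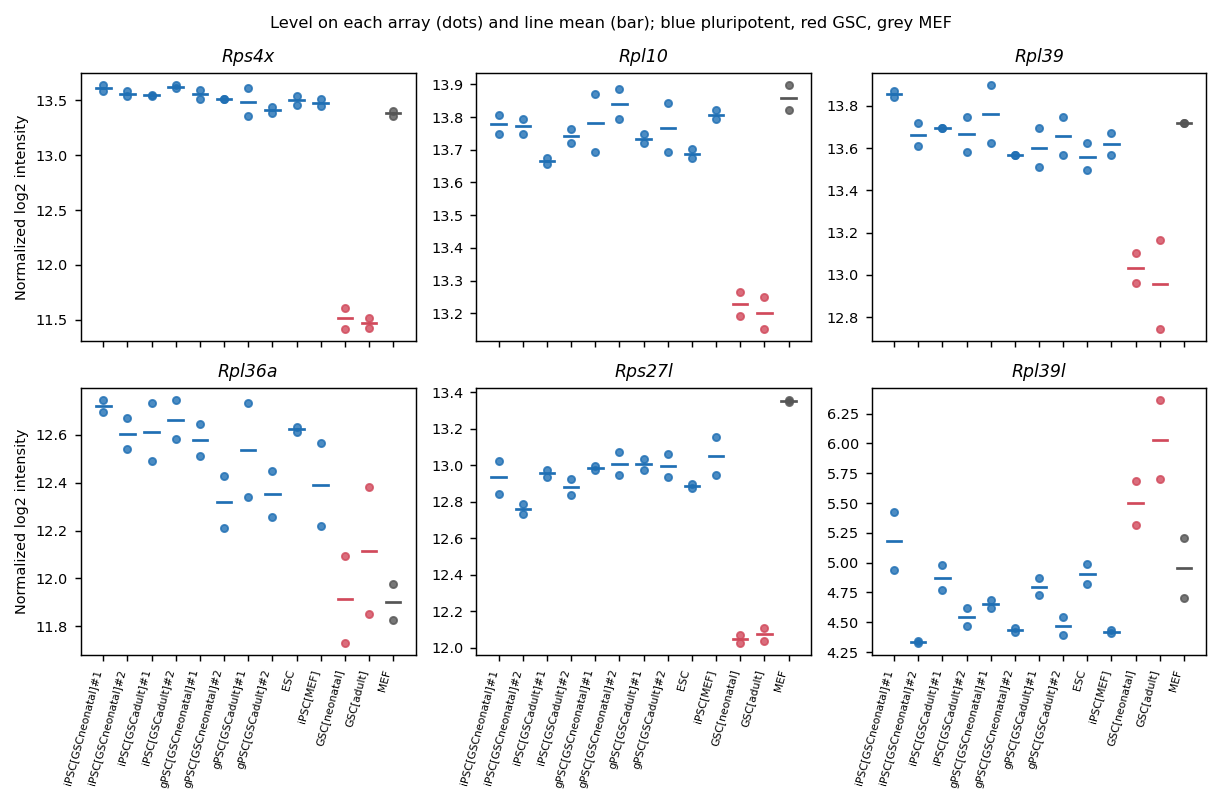
Normalized log2 intensity on each array (dots) and mean of each line (bars) for the X-linked Rps4x, Rpl10, Rpl39 and Rpl36a and for the paralogues Rps27l and Rpl39l; each panel has its own axis, which does not start at 0. GSC lie below all pluripotent lines in the first 5 panels and above them for Rpl39l.

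Paralogues did not move as one group. Of 6 measured, 3 were higher in pluripotent lines and 1 lower, with a median difference of 0.25. Rpl39l, the copy of Rpl39 that is used in male germ cells, was the gene called lower. It read 4.32 to 5.43 on pluripotent arrays (median 4.62; detected on 3 of 20), and 5.31, 5.68, 5.70 and 6.36 on GSC arrays, all detected. The means were 4.66 ± 0.27 (n = 10) and 5.77 ± 0.38 (n = 2), a difference of -1.10 (SE 0.32, limma adjusted p = 0.0053), and without GSC[adult] it was -0.84 (adjusted p = 0.0914). The pluripotent side was mostly at background, so the size is uncertain, and in the authors' deposited matrix the difference was -2.15. Its counterpart Rpl39 was higher in pluripotent lines, as given above. Rps27l, the copy of Rps27 that is induced by p53, lay between 12.74 and 13.15 on pluripotent arrays (median 12.94) and at 12.02, 12.07, 12.04 and 12.11 in GSC. The difference was 0.89 (SE 0.14, 1.85-fold, limma adjusted p = 1.36e-05), while Rps27 itself differed by -0.18 (adjusted p = 0.373). Rpl3l, the copy of Rpl3 known from muscle, was dim everywhere. It read 5.76 to 6.78 on pluripotent arrays, all detected, and 4.24 to 4.29 on GSC arrays, none detected. It was at least 2.78-fold higher in pluripotent lines, taking as the GSC level the dimmest signal that still counted as detected. Rpl3l would not have been tested without its pluripotent arrays, so its call, 1 of the 3 above, is not separate support for a difference. Rpl3 differed by 0.00 (adjusted p = 0.982). Rpl7l1, a copy of Rpl7, was higher by 0.40 (SE 0.16, adjusted p = 0.043), a call lost when any of several single arrays or lines was left out, with adjusted p-values up to 0.281 without GSC[neonatal]. Rpl22l1, the copy of Rpl22, differed by 0.10 (adjusted p = 0.883), and Rpl36al, a copy of Rpl36a that the symbol rule leaves out, by -0.01 (adjusted p = 0.967).

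Among the remaining core proteins, differences of more than 1.5 units were found on dim probes. Rps15a, of the small subunit, lay between 7.20 and 8.38 on pluripotent arrays (median 7.77) and at 5.03, 4.73, 4.90 and 4.80 on GSC arrays, of which 1 was detected. No arrays overlapped, and the fitted difference was 2.89 (SE 0.22). With 1 GSC array above background its size is uncertain, and in the authors' deposited matrix the difference was 4.07. Like Rpl3l, Rps15a would not have been tested without its pluripotent arrays, so its call is not separate support either. Rpl4, whose long loop lines the exit tunnel, lay between 10.41 and 11.13 (median 10.67) and at 8.57, 8.76, 8.88 and 8.94 in GSC, a difference of 1.93 (SE 0.16, adjusted p = 6.95e-10). Rpl27a and Rpl22, both of the large subunit, were higher by 1.72 (SE 0.18) and 1.69 (SE 0.24). Rpl22 was also the gene that varied most among pluripotent lines, with line means of SD 0.49. The other core genes called higher were Rpl7a (1.08), Rpl13a (0.97), Rpl19 (0.73), Rpl14 (0.72) and Rpl23a (0.50). Rpl7a was the one among them with overlapping lines: its GSC arrays read 10.09 and 10.12 (neonatal) but 11.01 and 11.47 (adult). The Rpl14 probe was near background in GSC, at 4.42 to 5.08, and was detected on 24 of 26 arrays. The size of its difference is uncertain, and in the authors' deposited matrix it was 1.44.

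Within the ceiling tier no gene was called in this comparison, and its median absolute difference was 0.070. The P-stalk proteins Rplp0 and Rplp1 and their partner Rpl12 differed by -0.22, -0.01 and -0.09, none called. Rpl5, which carries the 5S ribosomal RNA and binds Mdm2 when assembly fails, differed by -0.13 (adjusted p = 0.515). None of the 8 measured genes whose human versions are mutated in Diamond-Blackfan anaemia was called, and their differences ran from -0.23 for Rps7 to 0.24 for Rps26. Without the quantile step, on centred arrays, 4 of the 8 were called higher (Rps26 0.87, Rps10 0.59, Rpl27 0.55 and Rps19 0.46) and Rps7 was at 0.36 (adjusted p = 0.0642). Rpsa, also known as the laminin receptor, was detected on 10 of 26 arrays and not called.

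The scale of these differences depended on the quantile step, which gives all arrays one distribution of intensities and so holds the summed brightness of the top probes equal. Without it, and with arrays centred on their median detected probe, 39 of the 59 genes were higher in pluripotent lines and 1 lower. The median difference was then 0.52 for the ribosomal protein genes and 0.08 for all genes. All 15 genes called higher with the quantile step were called higher without it, and Rpl39l was again lower. Of the 37 bright genes below the ceiling, 27 were then higher, of the 8 near the ceiling 2. With neither step, 21 were higher and 1 lower (median 0.32, against -0.12 for all genes). In the authors' deposited normalized matrix, all 15 and Rpl39l were called in the same directions. Within single background groups, 10 were higher and 1 lower among the 8 arrays of one group, and 14 and 1 among the 16 arrays of the other. In the first of these, Rpl10 (0.56, adjusted p = 0.08) and Rpl22 (1.53, adjusted p = 0.0668) missed the threshold.

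**Figure D4:**
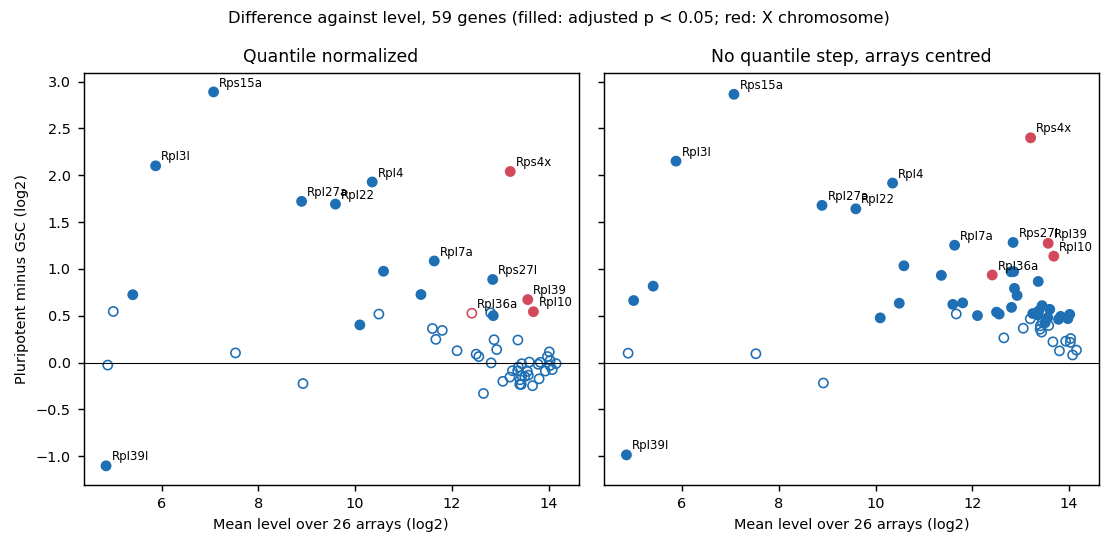
Pluripotent minus GSC difference (log2) against the mean level over 26 arrays for the 59 genes, with the quantile step (left) and without it, arrays centred (right); filled points passed adjusted p under 0.05 and red points are X-linked. On the left 15 filled points lie above 0 and 1 below, and on the right 39 lie above and 1 below.

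A second probe of the same gene did not always repeat the first. For Rpl38 the bright probe (mean level 13.82) differed by 0.00 between pluripotent lines and GSC and the dimmer one (10.65) by 2.24. For Rps24 the values were -0.14 and 1.40, for Rpl29 0.13 and 0.63, and for Rpl23 -0.17 on the brightest probe and 0.67 on the dimmest detected one. Rpl27a (1.72 and 0.25) and Rpl4 (1.93 and 0.46) differed in size but not in sign. Ribosomal protein genes have many processed copies in the genome, and which transcripts each probe binds was not tested.

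Pluripotent lines were next compared with MEF, the source cells of iPSC[MEF]. Of the 59 genes 9 were higher in pluripotent lines and 3 lower, against 23% and 20.5% of all genes, and the median difference was 0.096 against 0.098 for all genes. Arrays did not overlap for 19 genes above and 8 below, against 27.5% and 24.2% of all genes. Rps15a was undetected on both MEF arrays (4.56 and 4.90) and at least 5.35-fold higher in pluripotent lines. Rpl3l, at 4.19 and 4.24 in MEF, was at least 2.05-fold higher. Neither would have been tested without its pluripotent arrays, so their calls are not separate support for a difference. Rpl22 read 8.26 and 8.28 in MEF, below every pluripotent array (9.23 to 10.61), a difference of 1.72 (SE 0.32). The others called higher were Rpl7l1 (0.97), Rpl4 (0.85), Rpl23 (0.76), Rps13 (0.75), Rpl29 (0.62) and Rpl37a (0.53). Further detected probes gave 0.21 and 0.099 for Rpl23 and -0.21 for Rpl4 (a dim probe, mean level 4.90). Those of Rpl7l1 and Rpl29 gave 1.31 and 1.76. Lower in pluripotent lines were Rpl27a (-0.89), Rplp0 (-0.80) and Rpl24 (-0.55). Rplp0, the base of the P-stalk and a common reference gene in quantitative PCR, read 9.56 and 9.69 in MEF and 8.04 to 9.11 on pluripotent arrays, with no overlap (limma adjusted p = 0.0091). When line means were the unit of the fit, Rplp0 (adjusted p = 0.085) and Rpl27a (0.0658) missed the threshold. No X-linked ribosomal protein gene was called between pluripotent lines and MEF. Without the quantile step and with centring, 7 genes were called higher in both fits and the 3 lower genes were joined by others to make 6, with a median of -0.01 against 0.41 for all genes; over all genes the calls were then 4071 higher and 2004 lower, from 2259 and 2019. With neither quantile step nor centring, 2 were higher and 56 lower (median -1.56, all genes -1.14).

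GSC were last set against MEF. Of the 59 genes, 3 were higher in GSC and 8 lower, where 25.4% and 20.6% of all genes were called. Arrays did not overlap for 19 genes above and 18 below, against 43.8% and 35.3% of all genes. Lower in GSC were Rpl27a (-2.61, SE 0.28), Rps4x (-1.89, SE 0.22), Rpl7a (-1.64), Rpl13a (-1.51), Rps27l (-1.29), Rpl4 (-1.08), Rpl10 (-0.64) and Rpl24 (-0.62). These GSC arrays also served the comparison with pluripotent lines. Rpl27a read 7.24 to 7.54 on GSC arrays and 9.96 and 10.00 in MEF, with the pluripotent arrays between them at 8.34 to 9.52. Rpl39 read 13.72 on both MEF arrays, and its difference of -0.73 missed the threshold (adjusted p = 0.0561). Without GSC[neonatal], Rpl7a missed the threshold at -1.08 (adjusted p = 0.0506). Higher in GSC were Rpl23 (0.93), Rpl37a (0.69) and Rpl34 (0.62), while 2 other detected probes of Rpl23 gave 0.36 and -0.58. Rpl34 and Rpl37a missed the threshold when either GSC line was left out. None of these 3 passed the threshold as higher without the quantile step: on centred arrays Rpl23 differed by 0.45 (adjusted p = 0.15), Rpl34 by -0.24 and Rpl37a by -0.13. Centred arrays gave 25 genes lower in GSC and uncentred ones 56 (medians -0.57 and -1.93, all genes 0.42 and -0.94). All 8 lower genes were lower in that centred fit too.

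Between reprogramming routes no ribosomal protein gene was called. For iPSC[GSC] against gPSC, 4 clones against 4, limma on clone means called 0% of all genes, and 0 of the 59 had an unadjusted p under 0.05. Line means did not overlap for 5 genes above (Rpl27, Rpl36a, Rpl5, Rps14 and Rpsa) and 1 below (Rps27l), where 1.77% and 1.54% of all genes did so. The smallest p-values belonged to Rps25 (0.24, SE 0.11), Rpsa (0.21, SE 0.11) and Rps3a1 (0.22, SE 0.11), each with an adjusted p of 0.742. The median difference was 0.064, against 0.011 for all genes, and 0.010 without gPSC[GSCneonatal]#2. All iPSC[GSC] arrays lay in one background group and the gPSC arrays were split between it and another. Within the shared group the median was 0.052, again with no call.

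Donor age gave no call either. For the clones of adult against those of neonatal origin, with 0% of all genes called, the gene with the smallest p was Rps21, a small-subunit protein (13.28 ± 0.16 against 13.55 ± 0.11, n = 4 clones each; difference -0.27, SE 0.11, limma adjusted p = 0.751). It was the 1 gene of the 59 with an unadjusted p under 0.05. Rpl27a (0.38) and Rpl7l1 (0.20) followed, and Rpl10 had clone means without overlap, lower in adult-derived clones (1.17% of all genes were below in this way, and 0.945% above, where no ribosomal protein gene lay). The route and the donor age were also tested together, and no interaction was called among the 59 genes. GSC[adult] against GSC[neonatal], 2 arrays each, gave no ribosomal protein call and 0.0102% of all genes called. Rpl7a had the smallest p (11.24 ± 0.33 against 10.11 ± 0.02, SD over 2 arrays; difference 1.13, SE 0.42, adjusted p = 1.00), then Rpl19 (0.35) and Rpl29 (0.32). Arrays did not overlap for 16 genes above and 3 below, against 23.1% and 24.2% of all genes.

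Against ESC, the 8 germline-derived clones showed no called ribosomal protein gene, where 0.193% of all genes were higher and 0.407% lower. Rpl30, of the large subunit, was at 10.62 ± 0.25 in the clones and at 9.80 in ESC, with all 16 clone arrays above both ESC arrays (difference 0.82, SE 0.34, limma adjusted p = 0.648). Rps2 and Rps13 also had all clone arrays above ESC (3.41% of all genes did), and no gene had all of them below (4.89% of all genes). Rps2, a small-subunit protein near the ceiling, differed by 0.34 (SE 0.17, adjusted p = 0.882), and Rpl29 by 0.43 (SE 0.20, adjusted p = 0.751). For iPSC[MEF] against ESC, with 0.0407% of genes called higher and 0.122% lower, Rpl30 (0.97), Rps15a (0.78) and Rps2 (0.34) had the smallest p-values, none called. Arrays did not overlap for 14 genes above and 8 below, against 33.8% and 35.3% of all genes. The same ESC arrays serve both comparisons.

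Counts of other genes of the translation machinery in the same comparison are read against the 23.6% of all genes called higher and 27.7% called lower. Of 17 measured genes outside the symbol rule whose mRNAs carry the TOP element, 7 (41.2%) were higher in pluripotent lines than in GSC and none lower. On centred arrays without the quantile step the counts were 12 and 0. The median was 0.49 against -0.00088 for all genes. This list holds a ubiquitin fusion ribosomal protein gene and shares genes with the initiation and elongation lists below, so the counts overlap. The largest were Btf3 (1.18) and Hnrnpa1 (0.74), followed by Pabpc1 (0.61), the poly(A)-binding protein. Of 31 initiation factors, 13 (41.9%) were higher and 4 (12.9%) lower (17 and 2 on centred arrays). Eif2s2 (4.0, SE 0.17) and the X-linked Eif2s3x (2.47, SE 0.21), subunits of the factor that brings the initiator tRNA, were highest, and Eif1b (-2.07) was lowest. Of 11 factors of elongation and termination 2 were higher, led by the release factor Etf1 (1.61), and Eef2k (-0.63), the kinase of elongation factor 2, was lower.

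Of 49 ribosome biogenesis genes, 11 (22.4%) were higher in pluripotent lines than in GSC and 14 (28.6%) lower, shares near those of all genes. Ncl (1.41), the nucleolar protein nucleolin, Utp15 (1.34) and Sbds (1.16), which joins in the last step of large-subunit maturation, were higher, and Pes1 (-2.17), Exosc1 (-1.36) and Noc3l (-1.24) were lower. Of 14 measured RNA polymerase I genes 2 were higher, among them Polr1a (1.56), the catalytic subunit, and 4 lower, among them Polr1c (-1.45). Of 15 genes on a list of mTOR pathway, S6 kinase family and other genes, 3 were higher, Deptor (2.59), Rps6kl1 (2.26) and Eif4ebp1 (1.92), and 5 lower. The lower ones included Rps6ka3 (-1.10), Tsc2 (-1.01) and Mycl (-1.48), which is a Myc-family transcription factor and neither a kinase nor an mTOR component. Against MEF, 16 biogenesis genes (32.7%) were higher in pluripotent lines and 1 lower (2.04%), where 23% and 20.5% of all genes were called, and on centred arrays without the quantile step 13 were higher and 1 lower. Of 71 mitochondrial ribosomal protein genes, 18 were higher in pluripotent lines than in GSC and 17 lower (median 0.064), close to the 23.6% and 27.7% of all genes, and none was called in the comparisons among pluripotent lines or between the GSC lines.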

How the data were processed

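Total RNA was amplified to biotin-labelled cRNA and hybridised to Illumina bead arrays, per the labels' protocols. Per the file headers, the deposited table gives an intensity for each probe on each array with a detection p-value beside it, and the deposited matrix holds the authors' log2 values. The submitters' processing notes name BeadStudio 3.2, lumi and RMA. No header names a chip or a saturation flag. Intensities were background-corrected by negative-control detection and quantile normalized with limma 3.58.1 (neqc, offset 16; R 4.3.3). Kept probes had detection p under 0.01 on at least 2 arrays (14517 probes). Of 25697 probes, 23978 had 1 gene symbol. Of 9840 genes, each was read from its brightest kept probe. The comparisons other than route and donor age used 26 arrays with line as random block (correlation 0.812), and route and donor age used means of 8 clones. The procedure was tested on simulated data. Genes are named by rule: the largest calls of each comparison (or the 3 smallest p-values), P-stalk genes, paralogues and counterparts, extremes of spread, genes near the ceiling, undetected genes, and up to 3 genes of each other list; the remaining calls and a few others, including the X-linked group and the background-group values, were chosen after their values were seen. The genes and lists were chosen with earlier results of these data known. The study calls the replicates biological. The number of arrays limits the precision.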

Additional observations from a re-analysis of the deposited data

Results flagged for a closer look

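Single lines stood apart from the other pluripotent lines for 2 of the 59 genes tested in this way, and chance alone flags about 1 in 20. Rpl7a, a large-subunit protein, was lowest in gPSC[GSCadult]#2 at 11.15, with the next line at 11.65 and the highest at 12.08. In the same line Lum (11.2), Thy1 (9.61) and Col3a1 (9.59) of the fibroblast list were high. MEF read 5.21 for Lum, 11.8 for Thy1, 10.4 for Col3a1 and 12.32 for Rpl7a. The part of other cells in the Rpl7a value was not tested. Rps2, near the ceiling, was lowest in ESC at 13.75, with the next line at 13.96 and the highest at 14.15.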

How the results depend on the processing

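The counts of ribosomal protein genes called depended on the scaling in the comparisons with GSC and with MEF. Without the quantile step and with centred arrays, pluripotent lines against GSC gave 39 higher (median 0.52), pluripotent lines against MEF 6 lower (median -0.0063), and GSC against MEF 25 lower (median -0.57), with Rpl34 at -0.24 and Rpl37a at -0.13 there. The medians were then 0.228 for GSC[adult] against GSC[neonatal] and -0.109 for adult against neonatal origin. With neither step the medians were 0.32 for pluripotent lines against GSC, -1.56 for pluripotent lines against MEF (2 higher, 56 lower), -1.93 for GSC against MEF (0 higher, 56 lower), -0.067 for iPSC[GSC] against gPSC and -0.030 for germline-derived clones against ESC. All genes shifted in that setting, to medians of -1.14 for pluripotent lines against MEF and -0.94 for GSC against MEF, so signs there follow the shift. Below 0 with it were Rpl7l1 (-0.75), Rplp1 (-1.53), Rpl36a (-1.19), Rps27 (-1.58) and Rps4x (-1.54) between pluripotent lines and MEF. Between GSC and MEF they were Rpl23 (-0.91), Rpl37a (-1.48), Rpl34 (-1.59), Rplp1 (-1.47), Rpl7l1 (-1.03), Rpl22 (-1.37), Rpl36a (-1.93) and Rps27 (-1.77).

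Without background correction 3 genes were lower than in GSC, 5 were lower than in MEF, and 9 were higher in GSC than in MEF. Without a detection filter, where 16590 genes were tested, pluripotent lines had 5 lower than GSC, and 18 higher and 7 lower than MEF. GSC then had 10 higher and 17 lower than MEF, and the germline-derived clones 2 higher than ESC. Leaving out genes near the ceiling gave a median of 0.126 against GSC, and genes detected on all arrays, an alternative chosen after seeing the data, gave 0 lower. The signal share moved to 10.57% (pluripotent) and 9.54% (MEF) over all ribosomal protein probes, and to 6.72%, 5.38% (GSC) and 7.56% (MEF) on raw signal. Leaving out single arrays or lines gave 0 to 2 lower against GSC (0 without GSC[adult], 2 without GSC[adult] replicate 1), 1 to 5 higher and 6 to 11 lower for GSC against MEF (1 higher without GSC[adult], 5 without GSC[neonatal] replicate 1), and a median of 0 to 0.143 for GSC[adult] against GSC[neonatal].

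Over all genes, germline-derived clones against ESC gave 19 higher and 40 lower, and 96 and 146 without the filter or 18 and 13 in the authors' deposited matrix. For iPSC[MEF] against ESC the 4 and 12 became 46 and 66 without the filter, 9 and 21 without background correction and 2 and 7 in the authors' deposited matrix, and for GSC[adult] against GSC[neonatal] the 1 and 0 became 9 and 1 without the filter. With neither scaling step, all-gene calls were 632 and 6443 for pluripotent lines against MEF and 894 and 5413 for GSC against MEF, and with centring 3600 and 2128 for the latter. Replicate numbers went with the background group in 8 lines, where replicate 1 lay in one group and replicate 2 in the other. Deviations of same-numbered arrays correlated above 0.1 in 27 of the 28 pairs of these lines (0.083 to 0.41) and in 1 of the 50 other pairs, so the number did not pair all samples. Over all genes that block gave 7 higher and 0 lower for iPSC[GSC] against gPSC and 4 and 5 for adult against neonatal origin, where clone means gave 0. Arrays as the unit gave 16 and 5, and 24 and 39, while line means as the unit gave 1 and 5 for germline-derived clones against ESC and 1 and 2 for iPSC[MEF] against ESC. With the block, 16 ribosomal protein genes were higher and 1 lower against GSC, 8 and 3 against MEF, and 3 and 9 for GSC against MEF, where Rpl39 passed the threshold (-0.73, adjusted p = 0.0367). No header gave a chip, so background level, chosen after seeing the data, stood in for a batch, and comparisons with MEF could not be made within its groups. The number of arrays, 2 per line, limits the precision.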
